A study of Mus musculus with 18 samples.

Results

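The muscle acetylcholine receptor and the machinery that anchors it at the synapse were followed through 10 genes in C2C12 myotubes, muscle fibres that form in culture by fusion of an established mouse myoblast line. The genes were the receptor subunits Chrna1 (alpha 1), Chrnb1 (beta 1), Chrnd (delta), Chrng (gamma) and Chrne (epsilon), the synapse organisers Musk, Lrp4, Dok7 and Rapsn, and the acetylcholinesterase gene Ache. They form a list of named genes, matched by symbol in the table of expected counts, which gave 10 of 48795 gene IDs. The list was chosen from general knowledge, with earlier results of these data known. All 10 passed the filter on low counts, so none is missing from the tests. RNA was sequenced from 18 libraries in 6 groups of 3, all from myotubes differentiated for 5 days in 2% horse serum. Control cultures received 0.1% DMSO and were taken at 36 h. A pair of groups received ginsenoside Rc, a triterpenoid saponin of ginseng, for 36 h at 10 µM or at 20 µM. The dexamethasone group had vehicle (0.1% DMSO) for 12 h and then 200 µM dexamethasone, a synthetic glucocorticoid, for 24 h. In the last pair of groups 10 µM or 20 µM ginsenoside Rc took the place of vehicle in the first 12 h, and 200 µM dexamethasone was added for the next 24 h. DMSO is recorded only where no ginsenoside was given, and the labels do not state if the ginsenoside was kept on alongside dexamethasone. The comparisons ask how dexamethasone acts on these cells and whether ginsenoside Rc alters its action. The labels name 1 cell line and no co-culture with nerve.

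At the neuromuscular junction, acetylcholine from the motor nerve opens a receptor of 5 subunits that holds alpha, beta and delta chains and either gamma, in fetal and denervated muscle, or epsilon, in innervated adult muscle. Agrin from the nerve binds LRP4, which activates the receptor kinase MuSK, and DOK7 binds MuSK from inside the cell and is needed for its activity. Rapsyn, the product of Rapsn, ties receptors into clusters, and acetylcholinesterase in the cleft breaks the transmitter down.

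Library totals ranged from 32350889 to 45388609 expected counts, and 15436 genes were tested. In a principal component analysis of log2 CPM (counts scaled to a common library total) the first axis held 70.9% of the variance and put the 9 libraries with dexamethasone apart from the 9 without. Replicate 2 of the 20 µM ginsenoside group stood apart from all others on the second axis (5.37% of the variance), and 2.79% of its counts were mitochondrial, against 1.26% to 1.91% in the other 17 libraries. The mitochondrial share also moved with dexamethasone, from between 1.26% and 1.38% in controls to between 1.68% and 1.82% with dexamethasone alone, and its part in the results was not tested. Replicate 2 of the 20 µM ginsenoside group held the highest Chrna1 and Chrnb1 levels and the lowest Rapsn level of all 18 libraries. Results that rest on that library are given with and without it. The labels do not record separate cultures for replicates, so p-values reflect library to library spread that may be technical.

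The fetal and adult subunit genes and the alpha gene lie on different chromosomes, and the stretch before each transcription start is shown here because the subunit shares described below turn on these 3 genes. Chrng lies on chromosome 1 (87204657 to 87212694, plus strand), 4586 bp from the delta gene Chrnd (87190607 to 87200070, plus strand). Chrne lies on chromosome 11 (70614883 to 70619216, minus strand) and Chrna1 on chromosome 2 (73563215 to 73580338, minus strand); all coordinates are GRCm38. Each stretch runs from 170 to 31 bases before the RefSeq start (GRCm38.p6), is 140 bases long, holds no annotated exon base and is written 5′ to 3′ on the gene's strand. The Chrng stretch, chr1:87205641-87205780 (plus strand), lies inside the longer GENCODE gene model. Those of Chrne and Chrna1 are chr11:70619225-70619364 and chr2:73580369-73580508 (minus strand). Capitals mark E-boxes (CANNTG), a motif that myogenic factors share with other factors, and N-boxes (CCGGAA), the motif of the Ets factor GABP. Both motifs were searched on both strands.
Chrng: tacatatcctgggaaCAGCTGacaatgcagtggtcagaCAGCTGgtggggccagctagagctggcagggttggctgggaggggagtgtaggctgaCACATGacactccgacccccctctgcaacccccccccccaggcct
Chrne: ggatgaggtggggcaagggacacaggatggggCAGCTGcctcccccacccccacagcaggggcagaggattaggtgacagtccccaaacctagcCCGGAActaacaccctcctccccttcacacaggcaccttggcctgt
Chrna1: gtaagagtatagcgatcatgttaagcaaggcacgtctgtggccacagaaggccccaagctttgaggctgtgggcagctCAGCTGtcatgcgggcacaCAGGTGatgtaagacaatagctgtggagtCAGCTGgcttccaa
In the Chrng promoter the 3 E-boxes began 155, 132 and 75 bases before the start, and in the Chrna1 promoter 92, 73 and 44 bases before it. The Chrne promoter had 1 E-box, 138 bases before the start, and 1 N-box, 76 bases before it. Over the 250 bases before the start, 66.2% of 32817 RefSeq promoters held an E-box, 12.2% held at least 3, and 12.0% held an N-box. RefSeq entries were matched for 7 of the 10 genes. Musk and Chrnb1 also had 3 E-boxes in those 250 bases, Ache had 1, and Dok7 had 1 or 0 by its start site. The glucocorticoid half-site AGAACA, found in 16.1% of all promoters, was in none of the 8 entries. A match describes letters and not binding.

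Per kilobase of exon, the receptor subunits were the most abundant of the 10 transcripts in control myotubes, with the exception of the adult subunit. Chrna1 led with 414 ± 15.3 CPM per kb (SD, n = 3), followed by Chrng with 229.8 ± 4.8, Chrnd with 144 ± 2.24 and Chrnb1 with 92.6 ± 2.99. The organisers came next, with Rapsn at 43.9 ± 1.86, Lrp4 at 35.2 ± 0.442, Musk at 23.6 ± 1.57 and Dok7 at 11.9 ± 0.508 CPM per kb. Chrne (1.75 ± 0.217) and Ache (1.56 ± 0.14) were the lowest, and the libraries of these neighbours in the order overlapped, whereas those of every other pair of neighbours did not. With dexamethasone alone Musk (30.4 ± 0.185 CPM per kb) passed Lrp4 (27.1 ± 1.26). That order depends on the length used: on the longest transcript Lrp4 stayed above Musk, and Chrng (405 CPM per kb) rather than Chrna1 (369) led. Chrne and Ache rested on 36 to 142 and 100 to 356 counts per library, and the other 8 genes on at least 1654, so the lowest pair are the least precisely measured.

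**Figure D1:**
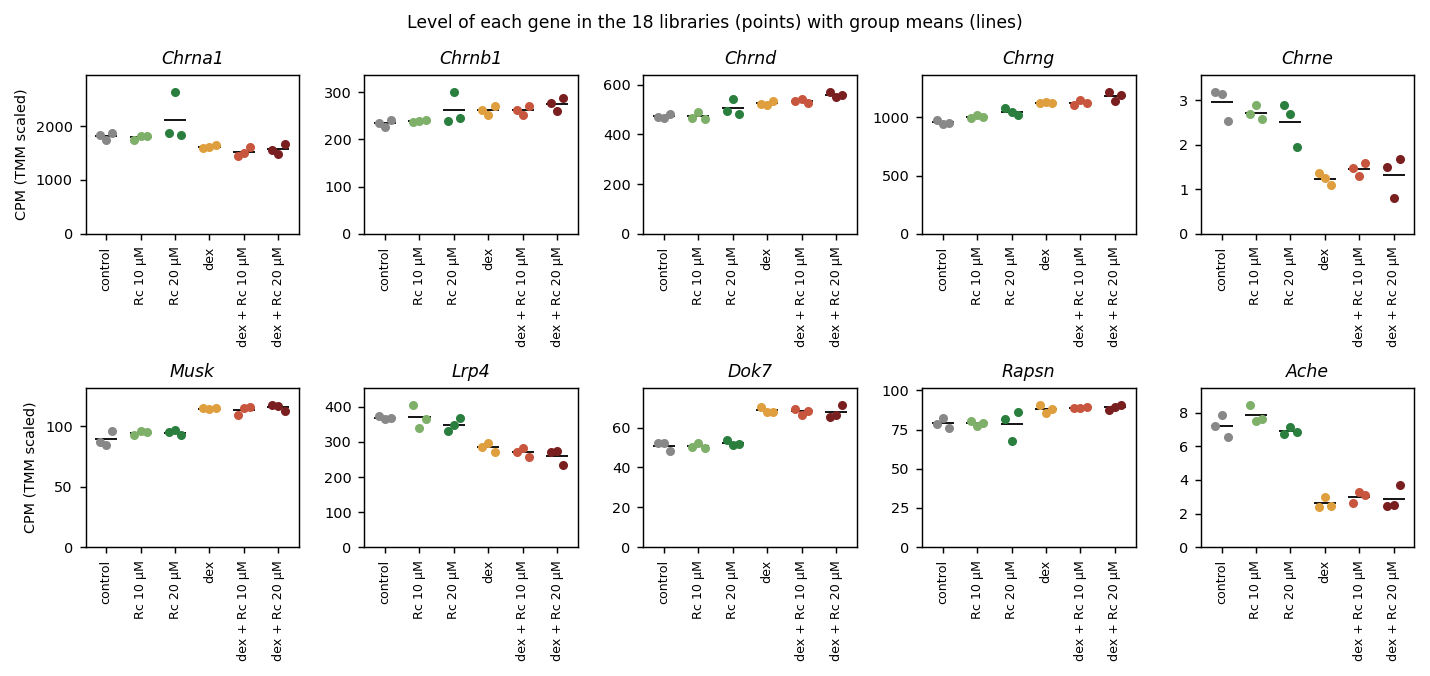
Level of each gene in TMM-scaled CPM (vertical axes, from 0) in the 6 groups; points are libraries and lines are group means of 3. Chrne and Ache lie lower, and Musk and Dok7 higher, in all 9 libraries with dexamethasone than in the 9 without, while replicate 2 of the 20 µM ginsenoside group stands out for Chrna1 at 2639 CPM.

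Dexamethasone alone, set against control, lowered the adult subunit gene and raised the fetal subunit gene, with a smaller rise of the delta subunit. Of the 10 genes, 4 rose and 3 fell at an adjusted p below 0.05 (edgeR quasi-likelihood test), against a background of 43.8% of the 15436 genes called, 20.6% higher and 23.2% lower. The libraries of the groups did not overlap for any of the 10, against 59.3% of all genes. The median log2 change was 0.15 over the 10 genes and -0.01 over all genes. In bulk RNA, fewer cells of a type and less RNA per cell cannot be told apart.

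Chrne, the subunit that replaces gamma in adult innervated muscle, was at 3.2, 3.13 and 2.53 CPM in the control libraries and at 1.38, 1.27 and 1.09 CPM with dexamethasone. All dexamethasone libraries lay below all controls, and Chrne fell 2.37-fold (log2 change -1.25 ± 0.20 (SE), adjusted p = 6.2e-05, edgeR). Chrng, the fetal subunit, was at 979, 942 and 949 CPM in controls and at 1126, 1129 and 1123 CPM with dexamethasone. It rose 1.18-fold (log2 change 0.23 ± 0.04, edgeR adjusted p = 0.00019), again with no overlap. The delta subunit Chrnd went from 471, 465 and 479.9 CPM to 521, 519 and 532 CPM, a rise of 0.15 ± 0.05 on the log2 scale (edgeR adjusted p = 0.013). Without control replicate 2 Chrnd was not called (0.14, edgeR adjusted p = 0.05). Its neighbour on chromosome 1, Chrng, and Chrnd therefore both passed the test in the same direction.

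The alpha and beta subunits, which stand in both the fetal and the adult receptor, did not pass. Chrna1, whose product binds acetylcholine, was at 1828, 1746 and 1879.7 CPM in controls and at 1595, 1611 and 1647 CPM with dexamethasone. Every dexamethasone library was lower, but the log2 change of -0.17 had a 95% interval from -0.38 to 0.04 (edgeR adjusted p = 0.19). Chrnb1 was at 235, 227 and 242 CPM in controls and at 262, 252 and 271 CPM with dexamethasone, with a log2 change of 0.16 (interval 0.01 to 0.30, edgeR adjusted p = 0.075). For both genes the 20 µM library that stood apart entered the shared estimate of spread. Without that library all 10 genes passed, against 51.9% of all genes, with Chrna1 at -0.17 (edgeR adjusted p = 0.0049) and Chrnb1 at 0.16 (edgeR adjusted p = 0.0024). With only the control and dexamethasone libraries in the model all 10 passed as well, against 53.5% of all genes. With library totals as the only scaling, all genes split into 2368 higher and 4392 lower, in place of 3176 and 3578; Chrnd then lost its call (0.08, edgeR adjusted p = 0.11) and Chrna1 gained one (-0.23, edgeR adjusted p = 0.041).

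The organisers of the synapse did not move together. Dok7, the cytoplasmic activator of MuSK, was at 52.2, 52.1 and 48.4 CPM in controls and at 70.3, 67.9 and 67.9 CPM with dexamethasone. The groups were well apart, and Dok7 rose 1.35-fold (log2 change 0.43 ± 0.05, edgeR adjusted p = 4.4e-07). Musk, the receptor kinase, went from 86.9, 84.9 and 96 CPM to 115, 114 and 115 CPM, a 1.29-fold rise (log2 change 0.36 ± 0.05, edgeR adjusted p = 3.5e-06). Lrp4, the agrin receptor that works with MuSK, moved the other way. It was at 374, 365 and 369 CPM in controls and at 285, 298 and 272 CPM with dexamethasone, and fell 1.3-fold (log2 change -0.37 ± 0.07, edgeR adjusted p = 0.00023). Rapsn, the clustering protein gene, was at 78.8, 82.6 and 75.9 CPM in controls and at 90.7, 85.5 and 88.2 CPM with dexamethasone. Its log2 change of 0.16 (interval 0.02 to 0.29) missed the threshold (edgeR adjusted p = 0.053) and passed without the 20 µM library that stood apart (edgeR adjusted p = 0.0014), without control replicate 2 (0.19, edgeR adjusted p = 0.046) and with DESeq2 (DESeq2 adjusted p = 0.035). An opposite-strand transcript, Gm13778, shares 4 bp of exon with Rapsn.

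Ache had the largest change of the 10 genes. The esterase gene was at 7.22, 7.86 and 6.57 CPM in controls and at 2.42, 2.99 and 2.48 CPM with dexamethasone, with no overlap. It fell 2.74-fold (log2 change -1.46 ± 0.14, edgeR adjusted p = 6.5e-08). The opposite-strand gene Gm42456 covers 98 bp (2.12%) of Ache exon and had 0 counts in the 18 libraries. Colq, the collagen tail that holds the enzyme in the cleft, stood at 18.4 ± 0.933 CPM in controls and 16 ± 0.67 with dexamethasone and fell by 0.21 on the log2 scale (edgeR adjusted p = 0.0081).

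**Figure D2:**
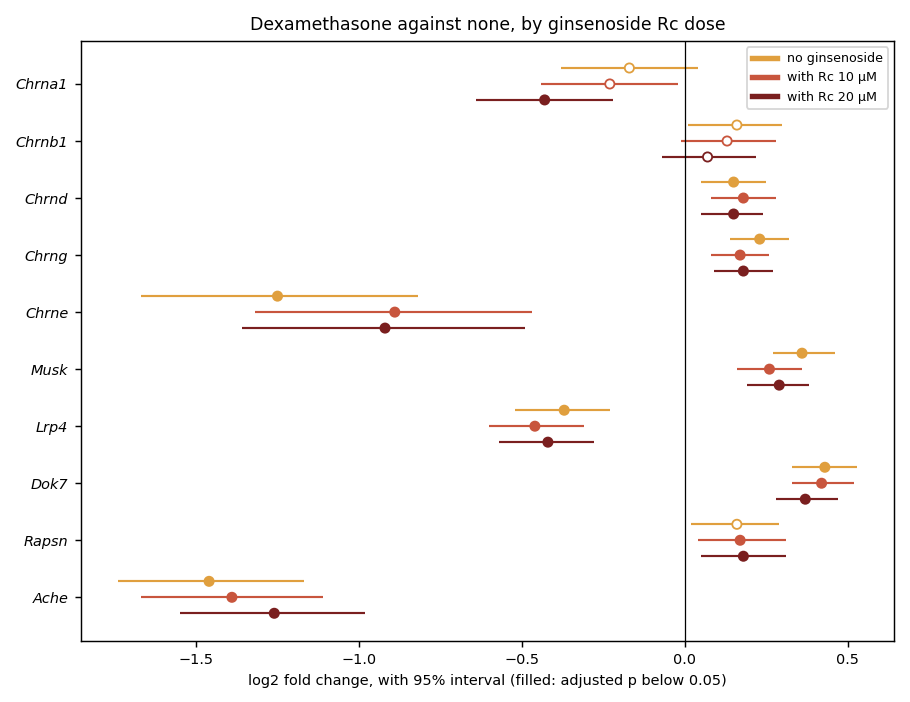
Log2 change with dexamethasone against the group without it at the same ginsenoside Rc dose (horizontal axis), for no, 10 µM and 20 µM. Bars are 95% intervals and filled points have an adjusted p below 0.05. Chrne and Ache lie furthest left at all 3 doses, Musk and Dok7 are filled to the right, and Chrna1 is filled at 20 µM only.

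The fetal subunit supplied nearly all gamma plus epsilon transcript in every group, and the small adult share shrank further with dexamethasone. The share is the level of Chrne per kb as a percentage of Chrng and Chrne together. In the control libraries it was 0.798%, 0.813% and 0.654%, and with dexamethasone 0.301%, 0.275% and 0.239%. With 10 µM ginsenoside it was 0.665%, 0.695% and 0.631% without dexamethasone and 0.329%, 0.278% and 0.351% with it. With 20 µM ginsenoside it was 0.657%, 0.627% and 0.47% without dexamethasone and 0.305%, 0.174% and 0.345% with it. No library with dexamethasone reached the lowest of those without, at any dose. The lowest library, at 0.174%, rested on 36 Chrne counts, and its exact (Clopper-Pearson) 95% interval ran from 0.122% to 0.241%, which covers counting error only.

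Tested over libraries within each ginsenoside dose, dexamethasone lowered the adult share and so raised the fetal share by 0.379 percentage points (two-sided exact permutation test, p = 0.00025, the smallest the 8000 relabellings can give, adjusted p = 0.00075 over 3 share tests). The differences were 0.483 points without ginsenoside, 0.344 at 10 µM and 0.31 at 20 µM. Neither ginsenoside dose gave a difference in the share that passed. At 10 µM the fetal share differed by 0.0219 points from vehicle within dexamethasone status (exact permutation p = 0.53, adjusted p = 0.53), and at 20 µM by 0.0836 points (exact permutation p = 0.16, adjusted p = 0.24). The 10 µM value pools 0.0915 points without dexamethasone and -0.0476 with it. At 20 µM the difference was 0.17 points without dexamethasone and -0.00298 with it, and leaving out the library that stood apart gave a pooled 0.0942 points (adjusted p = 0.28 by exact permutation). The size of the shift depends on the length used, since it was 0.266 points on the longest transcripts and 0.155 with no length scaling.

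**Figure D3:**
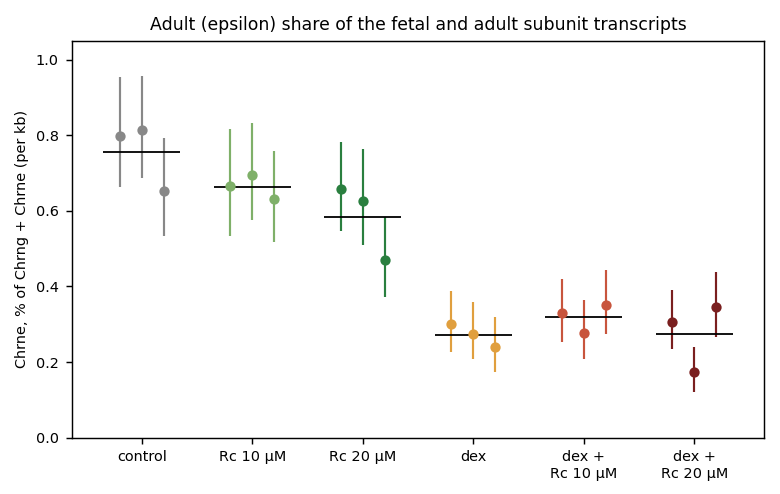
Chrne as a percentage of Chrng plus Chrne, per kb (vertical axis, from 0), in each library by group; bars are exact 95% intervals for counting error and lines are group means. The control libraries lie between 0.654% and 0.813% and the dexamethasone libraries between 0.239% and 0.301%.

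Among all 5 subunit transcripts, the alpha share was lower and the gamma, delta and beta shares were higher with dexamethasone. In controls Chrna1 made up 47.0 ± 0.61% of the subunit transcripts per kb (SD, n = 3), Chrng 26.1 ± 0.61%, Chrnd 16.3 ± 0.21%, Chrnb1 10.5 ± 0.11% and Chrne 0.199 ± 0.028%. With dexamethasone alone the shares were 40.9 ± 0.27%, 30.0 ± 0.42%, 17.7 ± 0.048%, 11.4 ± 0.32% and 0.0817 ± 0.01%. The receptor itself needs more than 1 alpha chain, and these are shares of transcript and not of protein. Chrna1 held 39.3 ± 1.3% and 38.8 ± 1.1% when 10 µM and 20 µM ginsenoside preceded dexamethasone, and 45.9 ± 0.49% and 48.2 ± 4.0% at those doses without it. The library that stood apart set the upper end at 20 µM, where Chrna1 ranged from 45.8% to 52.9%. These shares were not tested and describe the same counts as the gene by gene results. They also depend on the length used, here all annotated exon bases. On the longest transcripts Chrng (405 CPM per kb) led Chrna1 (369) with dexamethasone alone, while Chrna1 (414) led Chrng (344) in controls.

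**Figure D4:**
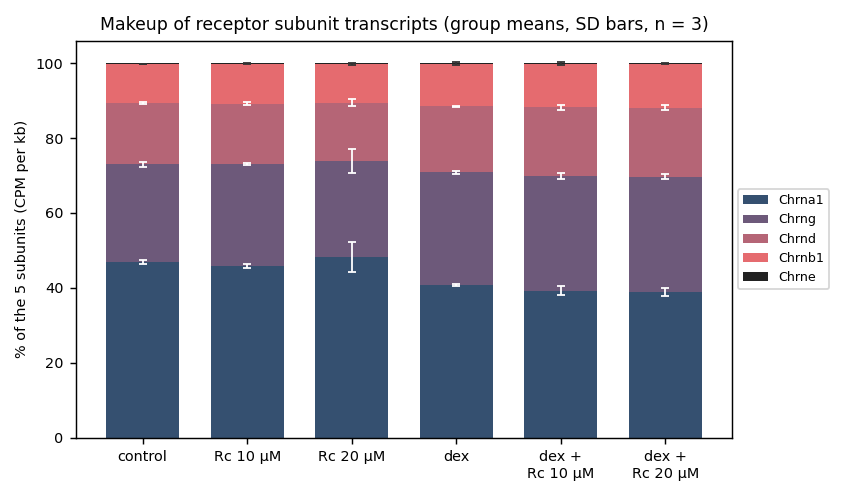
Share of each subunit among the 5 receptor subunit transcripts, in CPM per kb (vertical axis, %), as stacked group means; the bar at the top of a segment is the SD of that segment's share (n = 3). The Chrna1 segment is 47.0% in controls and 40.9% with dexamethasone, and the Chrne segment is too thin to see at under 0.2%.

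The response to dexamethasone had the same direction for all 10 genes at every ginsenoside dose, and the comparisons at the 3 doses share no library. At 10 µM ginsenoside 5 of the 10 rose and 3 fell with dexamethasone (edgeR), against 44.2% of all genes called, 21.1% higher and 23% lower, and Chrna1 and Chrnb1 did not pass. At 20 µM 5 rose and 4 fell, against 48.9% of all genes called, 23.5% higher and 25.4% lower, and Chrnb1 did not pass. Chrne was at 2.69, 2.89 and 2.57 CPM with 10 µM ginsenoside and at 1.48, 1.3 and 1.6 CPM when dexamethasone followed, a fall of 0.89 ± 0.20 on the log2 scale (edgeR adjusted p = 0.0013). At 20 µM its values were 2.89, 2.69 and 1.95 CPM without and 1.51, 0.808 and 1.67 CPM with dexamethasone, a fall of 0.92 ± 0.21 (edgeR adjusted p = 0.0011). The adult subunit gene was thus lower in every library with the glucocorticoid than in any without.

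Ache was at 8.47, 7.52 and 7.62 CPM with 10 µM ginsenoside and at 2.65, 3.25 and 3.11 CPM when dexamethasone followed. It fell by 1.39 ± 0.13 on the log2 scale there, and by 1.26 ± 0.13 at 20 µM, where it went from 6.74, 7.16 and 6.84 CPM to 2.44, 2.51 and 3.7 CPM. Chrng rose by 0.17 ± 0.04 and 0.18 ± 0.04 at the 2 doses, from 990.4, 1017 and 998 CPM to 1108, 1146 and 1119 CPM at 10 µM and from 1077, 1049 and 1019 CPM to 1219.9, 1139.8 and 1192 CPM at 20 µM. The fetal subunit libraries did not overlap at either dose. Dok7 rose by 0.42 ± 0.05 and 0.37 ± 0.05, Musk by 0.26 ± 0.05 and 0.29 ± 0.05, Chrnd by 0.18 ± 0.05 and 0.15 ± 0.05, and Rapsn by 0.17 ± 0.06 and 0.18 ± 0.06. The call of Rapsn at 10 µM was lost on leaving out replicate 2 or 3 of the 10 µM group or any of the 3 libraries with dexamethasone (0.16 to 0.18, edgeR adjusted p from 0.059 to 0.094). At 20 µM Rapsn lost its call without replicate 2 or 3 with dexamethasone (edgeR adjusted p = 0.054 and 0.055). Chrnd lost its call there without replicate 3 of the 20 µM group (0.11, edgeR adjusted p = 0.072) or replicate 1 with dexamethasone (0.13, edgeR adjusted p = 0.065). Lrp4 fell by 0.46 ± 0.07 and 0.42 ± 0.07. The 9 libraries with dexamethasone did not overlap the 9 without for 7 of the 10 genes, against 32.6% of all genes. Chrng, Musk and Dok7 were higher, as were 15.2% of all genes, and Chrna1, Chrne, Lrp4 and Ache were lower, as were 17.5%. Musk, for example, ranged from 109 to 118 CPM with the glucocorticoid and from 84.9 to 97.1 CPM without it.

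At 20 µM the size of the Chrna1 change depended on the library that stood apart, although its call did not. Its levels were 1872, 2639 and 1825 CPM with 20 µM ginsenoside and 1559, 1478 and 1672 CPM when dexamethasone followed, a fall of 0.43 ± 0.10 (edgeR adjusted p = 0.0016). Without the library at 2639 CPM the fall was 0.23 (edgeR adjusted p = 0.00066), and at 10 µM it went from 1733, 1818 and 1815 CPM to 1452, 1505 and 1614 CPM (log2 change -0.23, interval -0.44 to -0.02, edgeR adjusted p = 0.07). The 10 µM comparison passed for Chrna1 without that library (edgeR adjusted p = 0.00027). Leaving it out gave 10 genes called at 10 µM, against 52.6% of all genes, and 9 at 20 µM, against 51% of all genes, where Chrnb1 gained a call (0.19, edgeR adjusted p = 0.0016) and Rapsn lost it (0.09, edgeR adjusted p = 0.078). With only the 20 µM groups in the model 5 genes passed, against 34.6% of all genes: Musk and Dok7 were higher, and Chrne, Lrp4 and Ache lower.

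Without a composition correction Chrng (0.10, edgeR adjusted p = 0.083) and Rapsn lost their calls at 10 µM, and Chrnd and Rapsn lost theirs at 20 µM, while Chrna1 gained one at 10 µM (-0.30, edgeR adjusted p = 0.01). None of the 10 genes changed direction under that setting or under median-ratio size factors in the comparisons of dexamethasone with none.

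Whether the ginsenoside altered the response was tested as the interaction of both agents, and 0 of the 10 genes passed at either dose (edgeR), against a background of 0% of all genes. None had an unadjusted p below 0.05 at either dose, and DESeq2 called 0 of the 10 as well. For Chrne the interaction was 0.35 at 10 µM (95% interval -0.25 to 0.96) and 0.32 at 20 µM (-0.29 to 0.93), intervals that rest on the spread between libraries as well as on counting error and leave room for a difference in either direction. For Ache it was 0.07 (-0.33 to 0.47) and 0.19 (-0.21 to 0.59). The intervals of the better measured genes were narrower, with Dok7 at -0.01 (-0.15 to 0.13) and -0.06 (-0.20 to 0.08) and Musk at -0.10 (-0.24 to 0.03) and -0.08 (-0.21 to 0.06). Chrna1 had an interaction of -0.26 at 20 µM (-0.56 to 0.04, edgeR adjusted p = 0.88). The groups with ginsenoside alone had it for 36 h, and the labels do not state if it stayed on with dexamethasone. A change in ginsenoside exposure therefore cannot be told apart from dexamethasone in the groups given both.

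Ginsenoside Rc by itself changed none of the 10 genes past the threshold at either dose. At 10 µM against control 0 of 10 passed (edgeR), against 0.00648% of all genes, with log2 changes from -0.12 for Chrne to 0.12 for Ache and 0 genes at an unadjusted p below 0.05 or called by DESeq2. At 20 µM against control 0 of 10 passed, against 0.104% of all genes, and 3 had an unadjusted p below 0.05. These were Chrng (log2 change 0.13, interval 0.04 to 0.22, edgeR adjusted p = 0.35), Chrnb1 (0.16, interval 0.01 to 0.30, edgeR adjusted p = 0.51) and Chrna1 (0.22, interval 0.01 to 0.43, edgeR adjusted p = 0.53). Chrng and Chrnd lay above the controls in all 3 libraries at 20 µM, and such separation in either direction held for 11.7% of all genes. Chrna1 and Chrnb1 overlapped the controls. DESeq2 called Chrng in this comparison (adjusted p = 0.0084 by DESeq2), and DESeq2 called none of the others. Without the library that stood apart the differences were 0.13 for Chrng, 0.02 for Chrna1 and 0.04 for Chrnb1. At 10 µM only Chrng lay above the controls in all 3 libraries (edgeR unadjusted p = 0.14), and the share of all genes so separated is not given here.

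In cultures given dexamethasone, prior ginsenoside made no difference that passed either. With 10 µM before dexamethasone, set against dexamethasone alone, 0 of 10 passed, against 0.0259% of all genes, and the log2 differences ran from -0.09 for Chrna1 to 0.23 for Chrne (interval -0.23 to 0.69). With 20 µM 0 of 10 passed, against 0.369% of all genes, and the differences ran from -0.13 for Lrp4 (interval -0.28 to 0.02) to 0.13 for Ache (interval -0.18 to 0.43). In both comparisons 0 genes had an unadjusted p below 0.05 and DESeq2 called 0. With 20 µM, Chrng and Chrnd lay above dexamethasone alone in all 3 libraries (edgeR unadjusted p = 0.11 and 0.062) and the other genes overlapped. The share of all genes so separated is not given here. The intervals of Musk, at 10 µM -0.11 to 0.08 and at 20 µM -0.08 to 0.11, leave room only for small differences, while those of Chrne at 20 µM (-0.38 to 0.55) do not. The comparisons of the 2 doses share the control or the dexamethasone libraries, so they are not independent.

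**Figure D5:**
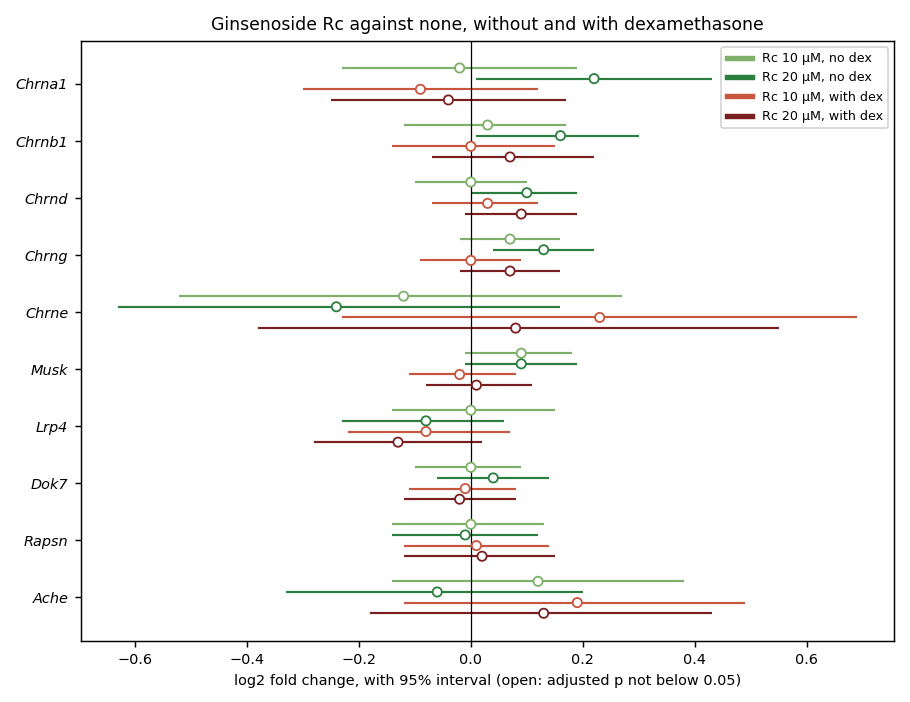
Log2 change with ginsenoside Rc against the group without it (horizontal axis), at 10 µM and 20 µM, without and with dexamethasone in both groups. Bars are 95% intervals. All points are open, since none of the 10 genes had an adjusted p below 0.05, and the widest intervals belong to Chrne.

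Around the 10 genes, 86 further genes of the junction were listed in 7 groups, and 70 were tested. These lists were chosen with earlier results of these data known, so their counts are a description and not independent support. With dexamethasone alone 25 of the 70 rose and 19 fell (edgeR), against 43.8% of all genes called, 20.6% higher and 23.2% lower. Their median log2 change was 0.05, against -0.01 over all genes. Without a composition correction 19 rose and 20 fell, with a median of -0.02. In that setting 2368 of all 15436 genes were called higher and 4392 lower, with a median of -0.072. The order of rises and falls thus depended on the correction, while the median of the list lay above that of all genes in both settings. Among genes of the postsynaptic cytoskeleton, the dystrophin complex and the anchors of the folded membrane, 12 of 14 rose and 2 fell, with a median of 0.39, where 20.6% of all genes were called higher and 23.2% lower. Without a composition correction 11 rose and 2 fell. Dtna, the dystrobrevin of that complex, went from 66.5 ± 2.2 to 196 ± 4.49 CPM (SD, n = 3; log2 change 1.56 ± 0.04), and Ank3, the ankyrin of the synaptic folds, from 41.7 ± 0.0781 to 87.9 ± 4.02 CPM (1.08 ± 0.07). Nes, the intermediate filament nestin, fell from 2744 to 1542 CPM (-0.83 ± 0.08), and Prkar1a, a regulatory subunit of protein kinase A, from 989.9 to 705 CPM (-0.49 ± 0.06).

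In the agrin and MuSK pathway 4 of 18 rose and 2 fell, a smaller share than the 43.8% of all genes called, with a median of 0.05. Without a composition correction the split turned to 1 higher and 3 lower, with a median of -0.02, against 2368 higher and 4392 lower of all 15436 genes. Dnaja3, which encodes the MuSK-binding protein Tid1 (0.31 ± 0.07), and the kinase gene Abl2 (0.18 ± 0.06) rose, although Abl2 lost its call without that correction (edgeR adjusted p = 0.19) and without control replicate 2 or 3 or dexamethasone replicate 2 (edgeR adjusted p from 0.066 to 0.11). The kinase genes Pak1 (-0.78 ± 0.06) and Src (-0.41 ± 0.05) fell. Agrn, the gene of agrin itself, which muscle also makes, had a log2 change of 0.01 (interval -0.19 to 0.21). Without the 20 µM library that stood apart 7 of the 18 rose and 2 fell, against 51.9% of all genes called.

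Of the neuregulin pathway and the Ets factors that act at synaptic promoters 3 of 9 tested rose and 4 fell, with a median of -0.23, against 20.6% of all genes higher and 23.2% lower. Nrg1, the growth factor neuregulin 1, went from 16.3 ± 0.445 to 3.8 ± 0.161 CPM (log2 change -2.10 ± 0.09), and the Ets factor Etv4 from 12.8 ± 0.212 to 6.06 ± 0.155 CPM (-1.07 ± 0.08). Erbb3, a neuregulin receptor (0.24 ± 0.04), and Erbin, which binds such receptors (0.22 ± 0.07), rose, the latter not without control replicate 2 or dexamethasone replicate 1 (edgeR adjusted p = 0.05 and 0.066). Among regulators of receptor genes by activity and denervation 4 of 12 tested rose and 3 fell, against 43.8% of all genes called, with a median of 0.04. Without a composition correction 3 rose and 3 fell, with a median of -0.02, against 2368 higher and 4392 lower of all 15436 genes. Myf6, a myogenic factor of mature fibres, went from 2.36 ± 0.222 to 10.4 ± 0.746 CPM (2.14 ± 0.11), and Gadd45a, a gene of denervated muscle, from 263 to 439.5 CPM (0.74 ± 0.05). Runx1, a factor induced by denervation, fell from 199 to 140.2 CPM (-0.51 ± 0.08). Myog, the gene of the myogenic factor myogenin, had a log2 change of -0.06 (interval -0.24 to 0.13, edgeR adjusted p = 0.64). The bearing of these regulators on the 10 genes was not tested.

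Of the synaptic basal lamina 1 of 9 tested rose and 5 fell, with a median of -0.16, against 20.6% of all genes higher and 23.2% lower. With the replicate number as a block 1 rose and 3 fell, against 3134 higher and 3518 lower of all 15436 genes. Lamb2, the laminin beta 2 chain of the synaptic cleft, rose (0.38 ± 0.07), and the collagen genes Col13a1 (-0.62 ± 0.09) and Col4a5 (-0.25 ± 0.09) fell, the latter not without control replicate 1 or 2 or dexamethasone replicate 1 (edgeR adjusted p from 0.072 to 0.16). For receptor assembly and glycosylation 0 of 6 tested rose and 3 fell, with a median of -0.08. That share is near the 43.8% of all genes called, and nothing is read from it. The falls were led by the sugar enzyme genes Gmppb (-0.75 ± 0.16) and Alg14 (-0.41 ± 0.09). Of the 11 neuronal-type nicotinic subunit genes only 2 passed the filter. Chrnb2 rose from 1.44 ± 0.314 to 2.81 ± 0.521 CPM (0.95 ± 0.20, edgeR adjusted p = 0.00062), and the median of this pair was 1.07.

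When ginsenoside came first, 25 of the 70 listed genes were higher and 18 lower with dexamethasone at 10 µM (edgeR), against 21.1% and 23% of all genes. Without a composition correction the 10 µM split turned to 16 higher and 21 lower, against 2449 higher and 4374 lower of all 15436 genes. At 20 µM 24 were higher and 22 lower, against 23.5% and 25.4% of all genes. Without the library that stood apart 30 were higher and 17 lower at 20 µM, against 51% of all genes called. With only the 20 µM groups in the model 17 of 69 tested were higher and 15 lower, against 34.6% of all genes called. At both doses the pathway genes with the smallest p were Dtna (1.57 at each dose), Nrg1 (-2.12 and -1.91) and Myf6 (2.46 and 2.58).

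Markers of other cells were read beside these results, for the whole of each list. Defining genes of motor neurons (Chat, Slc18a3 and Mnx1) had 0 counts in all 18 libraries, and the 6 motor neuron markers summed to at most 0.454 CPM. The Schwann cell gene Sox10 had at most 1 count. Its 4-gene list summed to between 1.14 and 1.28 CPM in controls and between 0.829 and 0.942 CPM with dexamethasone alone, without overlap. Of that list 0 of the 2 genes tested were called, against 43.8% of all genes. Over the 18 libraries that sum lay between 0.684 and 1.33 CPM. The 8 myotube markers summed to between 20064 and 21138 CPM in controls and between 22229 and 23727 CPM with dexamethasone alone. There 6 of 8 rose and 1, the embryonic myosin Myh3, fell (-0.90 ± 0.08), against 20.6% of all genes called higher and 23.2% lower. The 5 myoblast markers summed to between 303 and 311 CPM in controls and between 247 and 265 CPM with dexamethasone. Of these, the proliferation genes Mki67 (-3.41 ± 0.28) and Top2a (-3.05 ± 0.19) and the satellite cell gene Pax7 (-0.95 ± 0.07) fell, and Myf5 (1.14 ± 0.10) and Sdc4 (0.37 ± 0.07) rose. The 4 fibroblast markers summed to between 189 and 214 CPM in controls and between 141 and 154 CPM with dexamethasone, with Thy1 at no more than 1 count in any library. The list did not move one way: Dcn (181 to 110 CPM, -0.72 ± 0.08) and Lum (1.75 to 0.144 CPM, -3.58 ± 0.33) fell, and Pdgfra (15.2 to 39.2 CPM, 1.37 ± 0.06) rose. The myotube, myoblast, Schwann cell and fibroblast sums moved with dexamethasone, and their part in the changes of the 10 genes was not tested.

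Finally, the genes whose log2 CPM followed those of the 3 most changed members over the 18 libraries were listed as a description, among 11776 candidates. For Ache these were Ncapg (Pearson r = 0.986), Car9 (0.986) and Kirrel3 (0.985). For Chrne they were Sprr1a (0.944), Csrp1 (0.941) and Tmem173 (0.94), and for Dok7 Cdc34 (0.987), Dusp13 (0.986) and Tinagl1 (0.986). Dexamethasone divides the libraries into 9 and 9, and every r shares that division.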

How the data were processed

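Poly-A RNA was sequenced from 18 C2C12 libraries with a strand-directional kit and 100 bp paired-end reads, per the labels' protocols. RSEM 1.3.3, STAR 2.7.3a, Trim Galore 0.6.5, FastQC 0.11.9 and the builds GRCm38 and mm10 are named in the submitters' processing notes. Not given in the sources used here are the annotation release, filters and strand setting, so reads of genes that overlap on opposite strands may be mixed. The deposited table holds expected counts from the authors, estimated fragments per gene in which reads shared by similar genes are divided by estimation; 9.27% of values were not whole. GENCODE mouse release M21 (GRCm38) named 48435 of 48795 IDs. The 360 others, with 0.018% of counts, kept their IDs as names and stayed in the table that was filtered and tested.

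Rounded counts were filtered with filterByExpr, which left 15436 of 26796 detected genes, and normalized with TMM. In edgeR 4.0.16 (R 4.3.3, robust quasi-likelihood) all 18 libraries entered a model of 6 group means, and 9 comparisons were tested with Benjamini-Hochberg adjustment over all genes at 0.05. A gene is called where its adjusted p is below 0.05. Standard errors were derived as log2 change over the root of F. CPM are TMM scaled; per-kb levels use the annotated exon bases of each gene. Replicate pairs differed by more than sampling noise (chi-square per degree of freedom 5.03 to 84.6). The script was tested on simulated counts. Shares of Chrng and Chrne were compared by exact permutation within strata, and under the replicate block by flipping the signs of differences between same-numbered libraries. Alternatives were DESeq2 1.42.0, median-ratio size factors, no low-count filter, no composition scaling, a replicate block, a model of only the groups compared, each library left out in turn, and other lengths for the shares.

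The 10 genes and the pathway and marker lists were chosen with earlier results of these data known, from general knowledge. Besides the 10 genes, the text names per pathway list the 2 largest rises and 2 largest falls among genes called with dexamethasone alone and a mean log2 CPM of at least 1, the called list genes with the smallest p elsewhere (at most 3), and the 3 genes most like each of the 3 most changed members. Agrn, Myog, Colq and the marker genes were named after their values were seen. One item that the rule would name is not reported here.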

Additional observations from a re-analysis of the deposited data

How the results depend on the processing

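Of 380 values of the 10 genes in the comparisons of dexamethasone with none, recomputed under the alternatives, 343 kept their direction and side of the threshold, 21 lost a call, 16 gained one and 0 reversed. Libraries of the groups compared were left out 1 at a time, as was replicate 2 of the 20 µM group in every comparison. This gave 7 to 10 of the 10 genes called for dexamethasone alone, 7 to 10 at 10 µM and 8 to 9 at 20 µM ginsenoside. It gave 0 in each comparison of ginsenoside with vehicle and each interaction. The upper end of 10 came without replicate 2 of the 20 µM group, at no ginsenoside and at 10 µM. Over all genes, the fits with 1 library left out called 2724 to 3939 higher and 3103 to 4164 lower for dexamethasone alone. At 10 µM they called 2824 to 4042 higher and 3091 to 4177 lower, and at 20 µM 3102 to 3965 and 3434 to 3999. Between 15607 and 15639 genes were tested in these fits. Fitting only the compared groups gave 5 called at 20 µM, against 34.6% of all genes, in place of 9, against 48.9%. That model held 6 libraries, of which the one that stands apart is 1. DESeq2 called 1 gene, Chrng, for 20 µM against control in place of 0, and the cause of either difference was not tested. Over all genes that comparison had 30 higher and 71 lower with DESeq2, in place of 2 and 14, and 20 µM before dexamethasone against dexamethasone alone had 119 higher and 222 lower without the library that stands apart, in place of 18 and 39. Besides that library, leaving out a single one of the groups compared changed the calls of Chrnd and Rapsn, given beside their values. It changed those of no other of the 10 genes in the comparisons of dexamethasone with none. The effect of leaving out libraries of the other groups was not recorded.

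The dexamethasone difference in the gamma share ranged from 0.363 to 0.398 points when 1 library was left out, that of 10 µM ginsenoside from 0.00735 to 0.0473 and that of 20 µM from 0.0549 to 0.109. Same-numbered libraries of different groups did not deviate together: over 45 pairs r ran from -0.2 to 0.15, 4 pairs were over 0.1, and 5 of 18 libraries correlated best with their own number. With the replicate number as a replicate block, 7, 8 and 9 of the 10 genes were called at no, 10 µM and 20 µM ginsenoside, and 0 in the other comparisons. Of all 15436 genes, that setting called 3134 higher and 3518 lower without ginsenoside, 3221 and 3522 at 10 µM, and 3581 and 3843 at 20 µM. For the gamma share the block was a different test, which flips the signs of differences between same-numbered libraries. For dexamethasone it gave p = 0.0039 (exact sign-flip test, adjusted p = 0.012), the smallest p that test can give.

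Chrne rested on 36 to 142 counts per library, and counting error and the spread between libraries were not separated for its intervals.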
